A study of Homo sapiens with 42 samples.

Results

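The decitabine response of MOLM-13 was taken as the 3 decitabine libraries of this line against its 3 DMSO libraries, over all genes. These are 6 of the 42 labelled samples of the series and 6 of the 30 whose values are in the deposited table. MOLM-13 is an established acute myeloid leukaemia line of monocytic type that carries the KMT2A-MLLT3 fusion and an internal tandem duplication of FLT3. The labels give the genotype of both arms as WT. The treated arm received 100 nM decitabine on 3 successive days, the control arm received the solvent DMSO, and total RNA was taken at 72 hours in both. RNA was depleted of ribosomal RNA and sequenced as stranded libraries. Whether the replicates came from separate cultures is not given in the labels, which mention duplicate or triplicate wells. The p-values therefore reflect the variation among these libraries, and that variation may be technical.

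Decitabine is a cytidine analogue. Cells take it up through nucleoside transporters, deoxycytidine kinase phosphorylates it, and it enters DNA during replication, where it traps the DNA methyltransferases and so lowers DNA methylation as cells divide. Genes silenced by promoter methylation, among them germline genes and copies of endogenous retroviruses, can then be transcribed. In myeloid leukaemia the drug is known for slowing division and for raising genes of monocyte and granulocyte maturation.

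The values are the authors' normalised counts, that is estimated reads per gene divided by normalization factors. Whether these correct for gene length is not given in the sources used here, so levels are compared between libraries and not between genes. Estimated depth, rounded to 1000 reads, was 55497000 to 75039000 reads in genes with DMSO and 42918000 to 54828000 with decitabine, without overlap. With decitabine 23298 to 23533 genes had a value of at least 1, against 22184 to 22449 with DMSO. The part of depth in the results was not tested. The markers expected of the line were present in every library: CD33, CD4, LYZ, SPI1, FLT3, HOXA9 and MEIS1 all had means above 1000 in both arms. The haemoglobin genes HBA1 and HBA2, the platelet gene PF4, the B-cell gene MS4A1 and the epithelial genes KRT5 and KRT19 were at 0 in all 6 libraries. In bulk RNA, fewer cells of a kind and less RNA per cell cannot be told apart.

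Of 15589 genes that reached 10 in 3 or more libraries, 2491 rose (16.0%) and 2427 fell (15.6%) at a Benjamini-Hochberg adjusted p below 0.05 in limma, and 31.5% changed in either direction. The arms did not overlap for 49.2% of tested genes. Rises were larger than falls: the median called rise was 0.62 on the log2 scale and the median called fall was -0.33. Among called genes 469 rose and 26 fell by at least 1 on that scale, and 53 rose and 2 fell by at least 2. When values were scaled without the mitochondrial genes, 3020 genes rose and 1805 fell, so that 62.6% of calls were rises against 50.7% before. Leaving out decitabine replicate 1 lowered the calls to 1618 rises and 1603 falls, and leaving out decitabine replicate 3 lowered the rises to 1646. With the spread of all 30 libraries of the table in place of these 6, the calls were 322 rises and 371 falls. With that wider spread the lists described below had fewer calls, with 9 rises among monocyte markers, 3 among granulocyte markers and 5 among mitochondrial transcripts. It gave 10 falls among mitosis genes, 3 among DNA replication genes, 10 in the integrated stress response and 5 among KMT2A fusion targets.

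**Figure D1:**
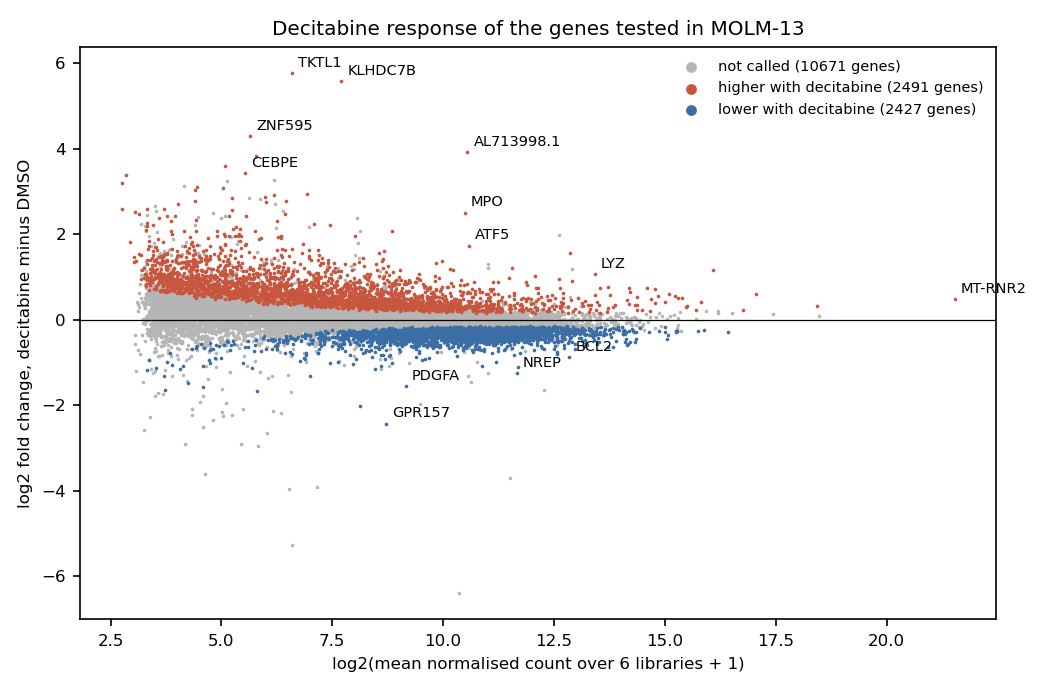
Mean level of each tested gene over the 6 MOLM-13 libraries, log2(mean normalised count + 1), against its log2 fold change (decitabine minus DMSO), with 2491 genes called higher in red and 2427 called lower in blue. The called rises reach 5.77 and the called falls -2.43, and falls are most frequent among genes with a mean above 1000.

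The direction of the calls differed with level and with the kind of gene. Among genes with a mean over 1000, 36.8% fell and 8.75% rose, with a median change of -0.13. Among genes with a mean from 10 to 50, 0.978% fell and 19.5% rose, with a median of 0.37, although a gene in that range can pass the filter through the higher arm alone. Protein-coding genes rose in 13.8% and fell in 19.4% of cases. Pseudogenes rose in 19.6% and fell in 3.18%, and the other non-coding genes rose in 24.4% and fell in 1.96%. Gene lists are described below by their counts and their median, beside these shares and the median of 0.04 over all tested genes. Where a list had no call in a direction by limma, no tested member was past an unadjusted p of 0.05 in that direction either, except for 2 checkpoint genes that were lower, 2 tumour suppressor genes that were higher and 1 lymphoid marker that was higher.

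The largest rises came from genes that were close to silent with DMSO. TKTL1 encodes a transketolase-like protein and is counted among the cancer-testis genes. It lies at chrX:154295671-154330350 (GRCh38, GENCODE 29) and read 1.79, 2.15 and 3.75 with DMSO and 178, 192 and 195 with decitabine (log2 fold change 5.77, SE 0.22, adjusted p = 7.63e-06). KLHDC7B, a kelch-domain gene at chr22:50545891-50551023, read 6.99, 5.49 and 5.73 with DMSO and 173, 281 and 770.2 with decitabine (log2 fold change 5.57, SE 0.54, adjusted p = 0.00164). Its decitabine libraries spread widely, yet each was far above every DMSO library. ZNF595, a KRAB zinc finger gene, read 6.96, 3.06 and 2.59 with DMSO and 96.2, 98.1 and 89.1 with decitabine (log2 fold change 4.29, SE 0.30, adjusted p = 0.000128). ERV3-1, the envelope gene of an endogenous retrovirus on chromosome 7, read 5.82, 5.12 and 6.89 with DMSO and 50, 55.3 and 68.5 with decitabine (log2 fold change 3.08, SE 0.20, adjusted p = 0.000108). ZNF117 overlaps ERV3-1 at the same locus (chr7:64971776-65006684), so reads of the pair may have been split between them. ZNF117 read 21.7, 21.3 and 20.1 with DMSO and 164, 178 and 114 with decitabine (log2 fold change 2.77, SE 0.18, adjusted p = 9.58e-05). The arms of these genes did not overlap. TKTL1, KLHDC7B, ZNF595 and ERV3-1 were below 10 in every DMSO library and passed the filter through the decitabine arm alone.

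Other large rises belonged to signalling and myeloid genes. SGK1, a serum- and glucocorticoid-induced kinase, read 12.6, 10.5 and 27.4 with DMSO and 125, 97.3 and 156 with decitabine (log2 fold change 2.92, SE 0.35, adjusted p = 0.00173). TREM1, an activating receptor of neutrophils and monocytes, read 8.04, 5.88 and 11.3 with DMSO and 63.6, 63.9 and 66.9 with decitabine (log2 fold change 2.85, SE 0.23, adjusted p = 0.000236). RGS2, a brake on G-protein signalling, read 24, 19.7 and 32.8 with DMSO and 139.7, 133 and 159.9 with decitabine (log2 fold change 2.48, SE 0.19, adjusted p = 0.00022). These 3 genes were higher in every decitabine library than in any DMSO library. SORCS2, a sortilin-family receptor, rose by 2.76 and ARAP3, a regulator of small GTPases, by 2.57 on the log2 scale. CEBPE and MPO, which complete the 12 largest rises, are given with the granulocyte genes.

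The promoters of 4 genes that rose from near 0 or from a low level are shown because the drug acts on methylated CG dinucleotides. They were taken by a rule on level with decitabine, not on CG content. They are the RefSeq sequences (GRCh38.p14) of the 250 bases before the annotated start, 5′ to 3′ on the strand of the gene, with each CG in capitals. The RefSeq starts differ from the GENCODE 29 starts given above. The first gene, LINC01091, is a long non-coding RNA that was below 1 in all 3 DMSO libraries, and it is described with the non-coding genes.
LINC01091 (chr4:123649741-123649990, plus strand): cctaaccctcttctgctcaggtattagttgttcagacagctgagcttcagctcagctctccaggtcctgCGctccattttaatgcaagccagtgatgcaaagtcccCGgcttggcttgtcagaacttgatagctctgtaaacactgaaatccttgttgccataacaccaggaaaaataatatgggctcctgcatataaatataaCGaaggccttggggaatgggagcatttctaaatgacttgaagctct
KLHDC7B (chr22:50545649-50545898, plus strand): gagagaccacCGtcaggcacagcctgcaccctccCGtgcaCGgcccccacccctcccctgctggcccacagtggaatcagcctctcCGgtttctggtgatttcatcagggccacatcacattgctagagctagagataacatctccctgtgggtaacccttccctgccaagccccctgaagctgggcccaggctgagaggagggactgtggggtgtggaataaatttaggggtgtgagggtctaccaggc
TKTL1 (chrX:154295545-154295794, plus strand): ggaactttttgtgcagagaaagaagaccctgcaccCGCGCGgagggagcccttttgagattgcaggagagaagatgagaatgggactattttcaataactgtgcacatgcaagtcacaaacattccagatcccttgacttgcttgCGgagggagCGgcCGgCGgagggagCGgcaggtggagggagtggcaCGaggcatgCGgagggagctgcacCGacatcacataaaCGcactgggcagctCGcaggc
ZNF117 (chr7:64991037-64991286, minus strand): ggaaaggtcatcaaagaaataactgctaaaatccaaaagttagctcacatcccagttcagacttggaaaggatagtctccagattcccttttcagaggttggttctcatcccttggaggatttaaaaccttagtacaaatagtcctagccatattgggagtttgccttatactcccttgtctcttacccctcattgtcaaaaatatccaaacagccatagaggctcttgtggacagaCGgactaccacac
TKTL1 has 13 CG dinucleotides in this stretch and 18 when the 50 bases after the start are included, and 44.5% of the 27305 promoters of the table have at least as many in the longer window. KLHDC7B has 4 and 5 (69.5% of promoters), LINC01091 has 3 and 4 (74.65%) and ZNF117 has 1 and 2 (88.5%). The ZNF117 stretch lies inside the gene span given above, and the stretch beside the GENCODE start of that span is the RefSeq promoter of ERV3-1, which has 7 and 9 (57.9%). Among the other genes with the largest rises, RGS2 has 28 and 32 (18.6%), ARAP3 23 and 33 (16.95%), ZNF595 10 and 12 (52.9%), SGK1 5 and 7 (62.55%), and CEBPE and TREM1 each 2 and 2 (88.5%). The windows thus run from few CG dinucleotides to many. DNA methylation was not measured in these libraries, and no other motif was searched.

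The largest falls were smaller than the largest rises. GPR157, an orphan G-protein-coupled receptor, read 465, 1111 and 574 with DMSO and 120.1, 120.4 and 129 with decitabine (log2 fold change -2.43, SE 0.32, adjusted p = 0.00436). PDGFA, a platelet-derived growth factor chain, read 947, 818 and 786 with DMSO and 306, 281 and 278 with decitabine (log2 fold change -1.55, SE 0.09, adjusted p = 5.58e-05). IGLL1, the surrogate light chain gene of early B cells, read 95.3, 78.8 and 74.3 with DMSO and 21.7, 21 and 35 with decitabine (log2 fold change -1.67, SE 0.21, adjusted p = 0.00134). No DMSO library of these genes was as low as a decitabine library. NREP, which encodes a small neuronal protein, read 4207, 5099 and 4307 with DMSO and 1811, 1987 and 1924 with decitabine (log2 fold change -1.25, SE 0.08, adjusted p = 9.58e-05). KDM7A, a histone demethylase, read 636, 612 and 602 with DMSO and 304, 308 and 309 with decitabine (log2 fold change -1.004, SE 0.07, adjusted p = 9.58e-05). TWISTNB, a subunit of RNA polymerase I, read 2883, 2645 and 2061 with DMSO and 1511, 1060 and 1023 with decitabine (log2 fold change -1.09, SE 0.19, adjusted p = 0.00899). The remaining members of the 12 largest falls were EPHB3 (-1.31), NPIPA9 (-1.16), TUBA8 (-1.12), CNTN4 (-1.09), JCAD (-1.001) and INSIG1 (-0.99), given as log2 fold changes. NPIPA9 belongs to a family of near-identical copies, so its value is uncertain. Of the 24 genes with the largest rises and falls, 16 were called under every alternative setting, and the other 8 lost the call only with the spread of all 30 libraries.

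**Figure D2:**
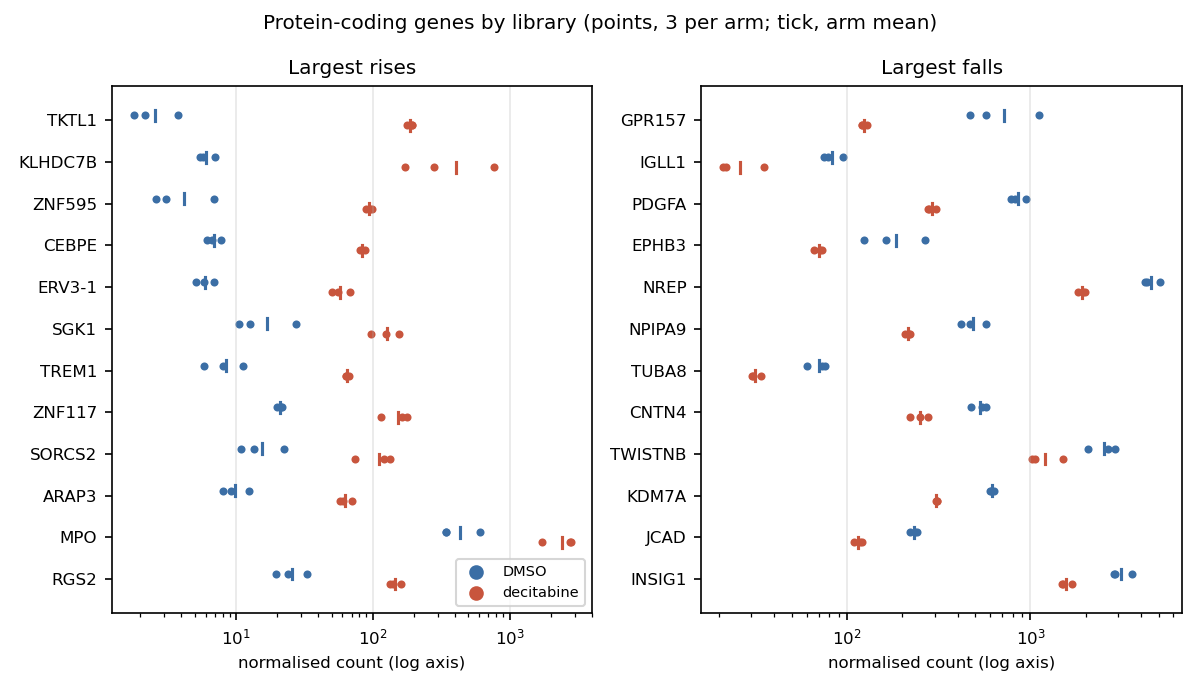
Normalised count (log axis) in each MOLM-13 library of the 12 protein-coding genes with the largest rise (left) and the 12 with the largest fall (right); points are libraries (3 per arm) and ticks are arm means. The arms do not overlap for any of the 24 genes, a condition of their choice, and KLHDC7B has the widest decitabine arm, from 173 to 770.

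Among genes that do not code for protein, AL713998.1 at chr6:67887646-67889339 stood out by level and tightness. It read 189.9, 178 and 185 with DMSO and 2741, 2721 and 2963 with decitabine (log2 fold change 3.92, SE 0.06, adjusted p = 2.15e-08). SSXP10, a pseudogene of the SSX cancer-testis family, read 3.47, 6.81 and 9.5 with DMSO and 110.3, 94.1 and 100.1 with decitabine (log2 fold change 3.84, SE 0.29, adjusted p = 0.00022). LINC02212 read 4.56, 5.05 and 3.12 with DMSO and 64.4, 60.6 and 60.4 with decitabine (log2 fold change 3.60, SE 0.21, adjusted p = 5.76e-05). In all 3 the lowest decitabine library was above the highest DMSO library. SSXP10 and LINC02212 were below 10 in every DMSO library and passed the filter through the decitabine arm alone. Z99496.2, which has no match in GENCODE 29, rose by 2.94. The largest non-coding falls were AC007318.1 (-2.01), PSMC1P1 (-1.03), IGKC (-0.97) and SORD2P (-0.92). Only 2 genes went from below 1 in all DMSO libraries to at least 10 in all decitabine libraries, and both were non-coding. LINC01091 read 0, 0.762 and 0.344 with DMSO and 10.8, 10.2 and 12.6 with decitabine. AC011472.2 read 0, 0.909 and 0 with DMSO and 12.9, 13.3 and 10.1 with decitabine. No gene went the other way by the same rule. These 2 genes were picked by these values, which are given as a description.

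The RNA of the enzymes that decitabine traps was not called higher or lower. DNMT1, the maintenance methyltransferase, read 4246, 4069 and 4612 with DMSO and 4702, 4689 and 5006 with decitabine (log2 fold change 0.16, SE 0.06, adjusted p = 0.086). DNMT3A and DNMT3B, the de novo enzymes, had log2 fold changes of 0.01 (adjusted p = 0.894) and -0.26 (adjusted p = 0.0506). UHRF1, which guides DNMT1 to new DNA, had -0.10 (adjusted p = 0.148). None of these 4 passed the test, although the arms of DNMT1 did not overlap. Under 16 alternative settings DNMT1 was called in 3, DNMT3B in 5 and the other 2 genes in none. Of 17 tested genes of the DNA methylation machinery 1 rose and 3 fell, beside 16.0% and 15.6% of all tested genes. Their median was -0.06. The falls were ZBTB33, a reader of methylated CG (-0.39), TDG, a glycosylase of active demethylation (-0.39), and MBD3 (-0.24). The call of MBD3 was lost without decitabine replicate 1, decitabine replicate 3 or DMSO replicate 3. The call of TET2 (0.50) was kept only without DMSO replicate 3 among the 6 fits that left out a library.

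Genes of decitabine handling were called in both directions, about as often as all tested genes. SAMHD1, which breaks down the active triphosphate, read 2126, 2055 and 2059 with DMSO and 2647, 2808 and 2688 with decitabine (log2 fold change 0.38, SE 0.05, adjusted p = 0.00161). DCK, the kinase that activates the drug, read 1516, 1591 and 1308 with DMSO and 1041, 1075 and 1140 with decitabine (log2 fold change -0.44, SE 0.08, adjusted p = 0.00573). DUT, a dUTP hydrolase of the same nucleotide pool, read 3246, 4179 and 3657 with DMSO and 2435, 2093 and 2416 with decitabine (log2 fold change -0.67, SE 0.10, adjusted p = 0.0029). The arms of each of these genes were apart. The concentrative transporter SLC28A3 rose from a low level, with 1.23, 4.09 and 8.3 with DMSO and 25.9, 25.5 and 16.7 with decitabine (log2 fold change 2.30, SE 0.49, adjusted p = 0.0117). SLC29A1, the equilibrative transporter, had a log2 fold change of 0.10 (adjusted p = 0.225), and CDA, the deaminase that inactivates the drug, stayed at or below 2.73 in every library and was not tested. In all 2 of 15 tested genes of this list rose and 3 fell, beside 16.0% and 15.6% of all tested genes. SLC28A3 passed the filter through the decitabine arm alone.

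Genes of mitosis fell in most of the tested cases, while CDKN1A rose. CDKN1A, the p21 inhibitor of cyclin-dependent kinases, read 3510, 3306 and 3410 with DMSO and 5510, 5712 and 5791 with decitabine (log2 fold change 0.73, SE 0.05, adjusted p = 0.000133). MDM2, a ubiquitin ligase, read 10233, 9748 and 9381 with DMSO and 13148, 12774 and 13313 with decitabine (log2 fold change 0.42, SE 0.05, adjusted p = 0.00132). Every decitabine library lay above every DMSO library for these 2 genes.

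Of 27 tested mitosis genes none rose and 20 fell, with a median of -0.36, and 19 of these falls were called whichever library was left out. CCNA2, the cyclin of S phase and mitotic entry, read 3379, 3501 and 3027 with DMSO and 1951, 2181 and 1996 with decitabine (log2 fold change -0.69, SE 0.07, adjusted p = 0.000602). PLK1, a kinase of mitosis, read 1925, 1824 and 1709 with DMSO and 1172, 1250 and 1211 with decitabine (log2 fold change -0.59, SE 0.06, adjusted p = 0.000671). MKI67, the proliferation antigen, fell by 0.36 and TOP2A, a topoisomerase, by 0.35 on the log2 scale. The arms of these 4 genes did not overlap, and the changes were small beside the largest rises.

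DNA replication genes fell less uniformly. Of 35 tested, 15 fell and 2 rose, with a median of -0.16, and 1 rose without decitabine replicate 1, decitabine replicate 2 or DMSO replicate 2. The median was -0.07 under quantile normalization and -0.11 when values were scaled without the mitochondrial genes. Among all tested genes with a mean over 1000, 36.8% fell, with a median of -0.13. MCM5 of the replicative helicase read 3080, 3025 and 2908 with DMSO and 1861, 1765 and 1839 with decitabine (log2 fold change -0.72, SE 0.05, adjusted p = 0.000165). MCM6, its partner, fell by 0.72, GMNN, the licensing inhibitor, by 0.57 and RFC3 of the clamp loader by 0.51. POLE, the leading-strand polymerase, went the other way and read 1452, 1529 and 1802 with DMSO and 2192, 2332 and 2750 with decitabine (log2 fold change 0.60, SE 0.11, adjusted p = 0.00542). Of 12 origin licensing genes 5 fell and 7 were not called. Of 40 tested clustered histone genes 12 fell and none rose (median -0.20). That count dropped to 6 without decitabine replicate 1, to 7 without decitabine replicate 3 and to 7 without DMSO replicate 1.

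Among apoptosis regulators the counts were balanced, with 4 rises and 5 falls of 20 tested, beside 16.0% and 15.6% of all tested genes. BCL2, the survival gene that venetoclax targets, read 10400, 9238 and 8965 with DMSO and 4989, 5423 and 5237 with decitabine (log2 fold change -0.87, SE 0.07, adjusted p = 0.00022). BCL2A1, another family member that protects cells, read 20.4, 22.4 and 20.8 with DMSO and 47.8, 48.2 and 40 with decitabine (log2 fold change 1.06, SE 0.16, adjusted p = 0.0024). BMF, which promotes cell death, read 316, 311 and 327 with DMSO and 494, 483 and 468 with decitabine (log2 fold change 0.60, SE 0.07, adjusted p = 0.000862), and BID, also a death-promoting member, fell by 0.51. The arms were apart for each of these 4. The other 5 calls of the list did not hold in every fit without a library: without decitabine replicate 3 the list had 2 rises and 2 falls.

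Markers of monocytes and granulocytes rose in most of the tested cases. Of 26 tested monocyte and macrophage markers 18 rose and 1 fell, with a median of 0.78, and 17 of the rises were called whichever library was left out. The fall was lost in 5 of the 6 such fits. Their summed value was 24534 to 25826 with DMSO and 35317 to 36562 with decitabine. LYZ, lysozyme, read 7312, 6760 and 7182 with DMSO and 14572, 14714 and 15066 with decitabine (log2 fold change 1.06, SE 0.05, adjusted p = 2.63e-05). MNDA, a nuclear antigen of myeloid cells, read 182, 134 and 156 with DMSO and 393, 434 and 445 with decitabine (log2 fold change 1.43, SE 0.12, adjusted p = 0.000263). CYBB, the catalytic subunit of the phagocyte oxidase, read 141, 156 and 148 with DMSO and 317, 307 and 292 with decitabine (log2 fold change 1.04, SE 0.09, adjusted p = 0.000263). Each was higher in every decitabine library. CD68, a lysosomal glycoprotein of macrophages, rose by 0.88, ITGAM by 0.93, ITGAX by 1.32 and S100A9 by 1.11. KLF4, a transcription factor of monocyte differentiation, rose by 0.98. Several defining markers of mature monocytes stayed near 0: CD14 reached at most 1.56, CD163 0.118 and VCAN 2.17 in any library. SPI1, the myeloid master factor, and CD33 had log2 fold changes of 0.12 and 0.05 and were not called.

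Of 12 tested granulocyte markers 8 rose and none fell, all 8 whichever library was left out, with a median of 0.44. MPO, the peroxidase of primary granules, read 345, 344 and 611 with DMSO and 2749, 2792 and 1736 with decitabine (log2 fold change 2.50, SE 0.31, adjusted p = 0.00503). CEBPE, the transcription factor of late granulocyte maturation, read 6.17, 7.74 and 6.71 with DMSO and 81, 87.3 and 83.5 with decitabine (log2 fold change 3.44, SE 0.17, adjusted p = 2.53e-05). BPI, a bactericidal granule protein, read 551, 566 and 569 with DMSO and 1330, 1446 and 1595 with decitabine (log2 fold change 1.37, SE 0.08, adjusted p = 4.77e-05). MPO had its lowest decitabine value, 1736, still above its highest DMSO value, 611. CEBPE was below 10 in every DMSO library and passed the filter through the decitabine arm alone. The count of rises among the granulocyte markers was thus set in part by the filter. AZU1 rose by 0.58, CSF3R, the receptor for granulocyte colony-stimulating factor, by 0.60, PRTN3 by 0.46 and ELANE by 0.31. The genes of secondary and tertiary granules did not follow: LCN2, MMP8 and OLFM4 were at 0 in all 6 libraries, and LTF reached at most 6.16 and CAMP 4.48. Few markers of other lineages passed the filter. Of 5 tested eosinophil, basophil and mast cell markers 2 rose, the eosinophil granule genes EPX (1.64) and PRG2 (1.03). Of 2 tested megakaryocyte markers NFE2 rose (0.78). Of 2 tested epithelial markers 1 rose, the keratin KRT8, which read 14.8, 16.7 and 16.7 with DMSO and 83.9, 43.4 and 78.1 with decitabine (log2 fold change 1.97, SE 0.25, adjusted p = 0.00128). Of 3 tested erythroid markers none was called.

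Of 22 tested genes known as targets of the KMT2A fusion 10 fell and none rose, with a median of -0.21. Of these falls, 9 were called whichever library was left out. BCL2, given above, is among them. Beside this, 36.8% of all tested genes with a mean over 1000 fell, with a median change of -0.13. FLT3, the receptor kinase mutated in this line, read 10858, 10999 and 11083 with DMSO and 7673, 8066 and 8034 with decitabine (log2 fold change -0.47, SE 0.05, adjusted p = 0.000592). HOXA9, the homeobox gene that maintains KMT2A-rearranged cells, read 2393, 2549 and 2616 with DMSO and 1897, 2018 and 2080 with decitabine (log2 fold change -0.33, SE 0.06, adjusted p = 0.00511). HOXA10 fell by 0.55 and SENP6, a SUMO protease, by 0.53. MEIS1, the partner of HOXA9, read 2072, 1908 and 2279 with DMSO and 2150, 2156 and 2262 with decitabine (log2 fold change 0.07, SE 0.07, adjusted p = 0.455) with overlapping arms. The genes of the fusion itself differed: MLLT3 had a log2 fold change of -0.44 and was called, and KMT2A had 0.16 and was not. These reads do not separate the fusion from the intact alleles. Among 8 tested progenitor markers 4 fell and 1 rose, a rise lost in 5 of the 6 fits without a library, and CD34 was at most 6.76.

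**Figure D3:**
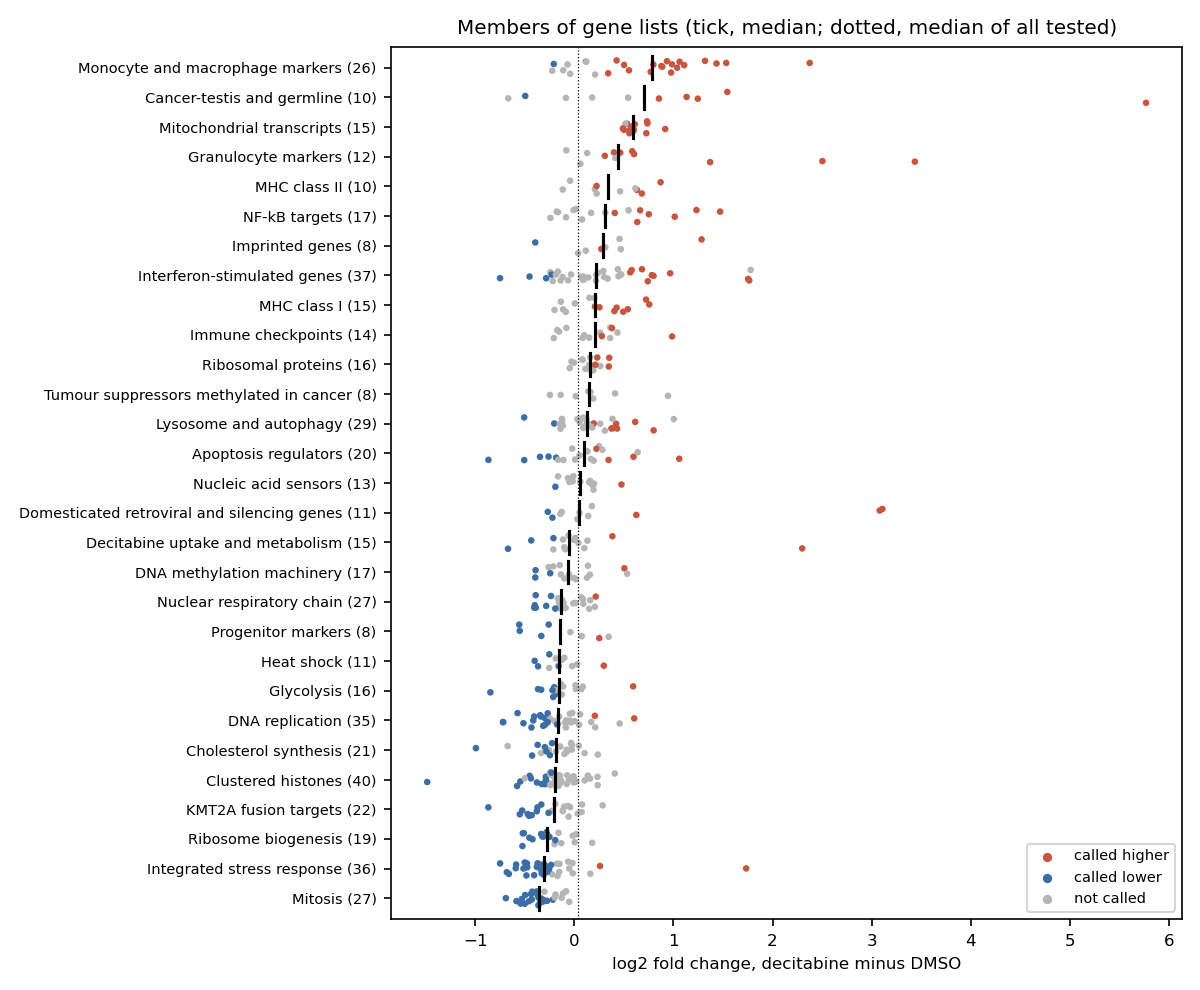
Log2 fold change (decitabine minus DMSO) of the tested members of each gene list described here with at least 8 tested members, ordered by median, with red points called higher, blue points called lower and grey points not called. Monocyte and macrophage markers have the highest median, 0.78, and mitosis genes the lowest, -0.36.

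Genes of amino acid supply fell together, with ATF5 as the exception. The list holds genes of the integrated stress response, which ATF4 drives when cells lack amino acids or suffer stress. Of 36 tested, 24 fell and 2 rose, with a median of -0.31, and 21 of the falls were called whichever library was left out. All 8 genes of amino acid synthesis fell, among them PSPH of the serine pathway, which read 2783, 2622 and 2752 with DMSO and 1812, 1796 and 1799 with decitabine (log2 fold change -0.59, SE 0.05, adjusted p = 0.000294), and PYCR1 of the proline pathway, which fell by 0.75. SLC7A5, the large neutral amino acid transporter, read 7051, 7155 and 7213 with DMSO and 4331, 4543 and 4474 with decitabine (log2 fold change -0.68, SE 0.05, adjusted p = 0.00014). SLC1A5, a glutamine transporter, fell by 0.66, and 6 of 8 aminoacyl-tRNA synthetase genes fell. ATF5, a transcription factor of the same response, read 678, 729 and 702 with DMSO and 2382, 2402 and 2236 with decitabine (log2 fold change 1.73, SE 0.06, adjusted p = 5.04e-06). Its values hardly varied within an arm and rose while most of its list fell. ATF4 had a log2 fold change of -0.15 (adjusted p = 0.0546) and DDIT3 had 0.16 (adjusted p = 0.194). The other rise, PPP1R15A (0.26), was lost without decitabine replicate 2, decitabine replicate 3 or DMSO replicate 2.

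Other growth-related lists were called in part, beside falls in 36.8% of all tested genes with a mean over 1000. Of 19 ribosome biogenesis genes 12 fell and none rose (median -0.27), among them UTP20, WDR43 and POLR1B, with log2 fold changes of -0.52, -0.45 and -0.42. UTP20, a component of the small-subunit processome, read 3424, 3493 and 3274 with DMSO and 2384, 2260 and 2441 with decitabine. Of 21 cholesterol synthesis genes 7 fell and none rose (median -0.19). INSIG1, the sterol sensor that restrains the pathway, read 2903, 3580 and 2850 with DMSO and 1507, 1675 and 1484 with decitabine (log2 fold change -0.99, SE 0.09, adjusted p = 0.000495), and CYP51A1 and SQLE, enzymes of the pathway, fell by 0.37 and 0.28. The count of the cholesterol list was 3 without DMSO replicate 2 and 4 without decitabine replicate 1. Of 16 glycolysis genes 7 fell and 1 rose, and the falls numbered 2 without decitabine replicate 1, 2 without DMSO replicate 2, 3 without decitabine replicate 3 and 4 without DMSO replicate 3. HK1 rose by 0.59 and HK2 had a log2 fold change of -0.37, so the 2 hexokinases moved in opposite directions. Of 16 ribosomal protein genes 4 rose, but none was called without decitabine replicate 2 or without DMSO replicate 2, and 1 was called without decitabine replicate 3. Of 11 heat shock genes 4 fell and 1 rose, and 2 fell without decitabine replicate 1 or without decitabine replicate 3.

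Transcripts of the mitochondrial genome rose while nuclear genes of the respiratory chain did not. Of 15 mitochondrial transcripts 14 rose and none fell, with a median of 0.59. MT-ND6, the complex I gene on the light strand, read 5704, 4844 and 5313 with DMSO and 10467, 10593 and 8910 with decitabine (log2 fold change 0.92, SE 0.09, adjusted p = 0.000427). MT-CYB of complex III read 9003, 7964 and 9863 with DMSO and 13741, 15644 and 15119 with decitabine (log2 fold change 0.73, SE 0.09, adjusted p = 0.000963). MT-CO1 of complex IV read 98192, 112000 and 117370 with DMSO and 164900, 161160 and 168870 with decitabine (log2 fold change 0.60, SE 0.07, adjusted p = 0.00107). The arms were apart in each case. The calls of MT-ND3, MT-CO2 and MT-ATP8 were lost in some fits that left out 1 library, which gave at least 11 calls. MT-RNR1, the small ribosomal RNA, was low and uneven, with 38.5, 13 and 9.78 with DMSO and 34.6, 24.4 and 18.2 with decitabine, and was not called. Of 27 nuclear genes of the respiratory chain 7 fell and 1 rose (median -0.13), and 3 fell and none rose without decitabine replicate 1. NDUFS1 of complex I and SDHA of complex II fell by 0.39 and 0.41.

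The share of all mitochondrial transcripts in the summed normalised count was 13.5% ± 0.877 (SD, n = 3) with DMSO and 18.7% ± 0.454 (SD, n = 3) with decitabine (exact two-sided permutation p = 0.1, the smallest that 3 against 3 allows). Most of it is MT-RNR2, a ribosomal RNA, in libraries that were depleted of ribosomal RNA. The part of the depletion in this share was not tested. The share of mitochondrial mRNA rose from 1.48% ± 0.126 to 2.20% ± 0.0371 (SD, n = 3 per arm; exact permutation p = 0.1). Neither share overlapped between the arms, from 12.5% to 14.1% against 18.2% to 19.1% for all mitochondrial transcripts. In SKM-1, another myeloid leukaemia line treated alike and sequenced to a similar depth, the mRNA share was 1.64% ± 0.117 with DMSO and 1.59% ± 0.135 with decitabine (SD, n = 3 per arm; exact permutation p = 0.6). The share of all mitochondrial transcripts in SKM-1 did not overlap between the arms, from 13.7% to 15.1% with DMSO and from 15.5% to 18.2% with decitabine. In MOLM-14, the sister line of MOLM-13, the mRNA share went from 1.18% to 1.31% with DMSO and from 1.32% to 1.73% with decitabine, again without overlap (exact permutation p = 0.1, n = 3 per arm). Responses of 11 of the 15 mitochondrial transcripts differed between MOLM-13 and SKM-1 in limma, all of them with the larger response in MOLM-13, and all 11 are mRNA. Against MOLM-14 the responses of 0 of the 15 differed at an adjusted p below 0.05 in limma, and 9 were higher in MOLM-13 before adjustment at the same threshold.

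**Figure D4:**
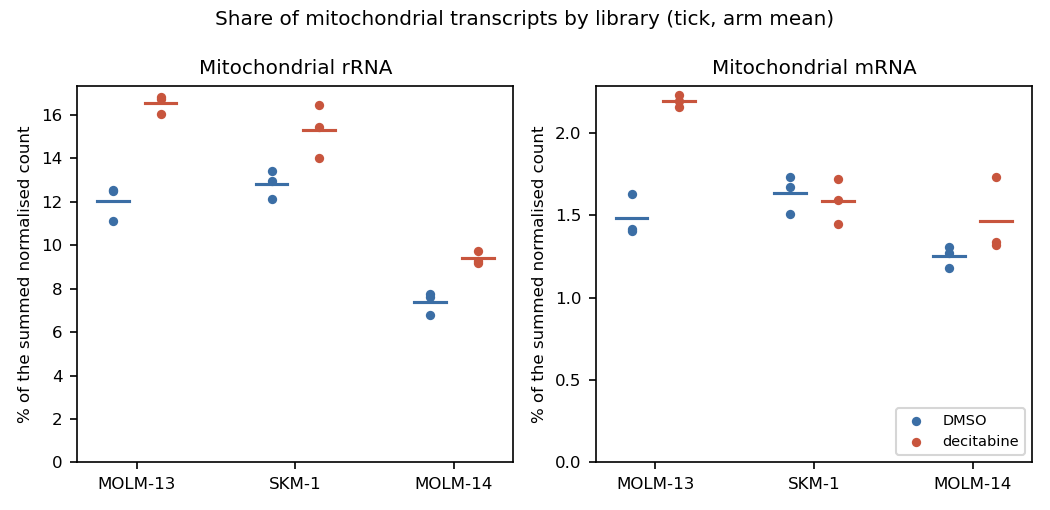
Share of the summed normalised count in mitochondrial ribosomal RNA (left) and mitochondrial mRNA (right) in each library of MOLM-13, SKM-1 and MOLM-14; points are libraries and ticks are arm means. In MOLM-13 the mRNA share with decitabine is 2.16% to 2.23%, above the 1.40% to 1.63% with DMSO, whereas the SKM-1 arms overlap.

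Germline genes, which are often cited as targets of this drug, stayed low in MOLM-13 with few exceptions. Of 54 cancer-testis and germline genes only 10 passed the filter, of which 5 rose and 1 fell. The other 44 reached at most 10.2 in any library, among them MAGEA6, MAGEC1, MAGEC2 and SSX2, which were at 0 in all 6. TKTL1 was the main rise. TKTL1, PRAME and PNMA5 were below 10 in every DMSO library and passed the filter through the decitabine arm alone. The count of rises among the tested members was thus set in part by the filter. PRAME, a widely studied tumour antigen, read 8.2, 7.31 and 5.94 with DMSO and 17, 17.2 and 20.7 with decitabine (log2 fold change 1.25, SE 0.22, adjusted p = 0.00495). STAG3 of the meiotic cohesin complex read 96.6, 113 and 123 with DMSO and 207, 176 and 222 with decitabine (log2 fold change 0.85, SE 0.13, adjusted p = 0.00265). PNMA5 read 4.31, 5.66 and 1.42 with DMSO and 11.1, 12.3 and 12.1 with decitabine (log2 fold change 1.54, SE 0.39, adjusted p = 0.0178), a call lost without decitabine replicate 3. TEX15, a silencing factor of germ cells, fell and read 6022, 6226 and 5498 with DMSO and 4178, 4328 and 4061 with decitabine (log2 fold change -0.50, SE 0.06, adjusted p = 0.00116). H19, an imprinted non-coding RNA, was at 0.874 to 1.98 in every library. Of 8 tested tumour suppressor genes known for methylation in cancer none was called by limma, 2 were higher and 0 lower at an unadjusted p below 0.05, and CDKN2B was at 0 throughout. DAPK1 came closest (log2 fold change 0.94, SE 0.32, adjusted p = 0.0547), with 25.1, 21.6 and 18.2 with DMSO and 70, 38.7 and 27.6 with decitabine.

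Interferon-stimulated genes were called in both directions, as were the tested genes at large. Of 37 tested, 9 rose and 4 fell, beside 16.0% and 15.6% of all tested genes. Their median was 0.22, and 0.03 under quantile normalization. TRIM22 and MX2, effectors against viruses, read 1267, 1295 and 1296 with DMSO and 2120, 2125 and 1952 with decitabine (log2 fold change 0.68, SE 0.06, adjusted p = 0.000263) and 189, 170.0 and 184 with DMSO and 288, 299.5 and 322 with decitabine (log2 fold change 0.74, SE 0.09, adjusted p = 0.000972), respectively. IFI27 rose by 1.75 and IFI6 by 0.78. The classical members ISG15 (-0.03) and IFIT1 (-0.14) had overlapping arms and were not called. The falls numbered 2 without decitabine replicate 3 and included USP18, a brake on the receptor, at -0.75. Of 13 tested nucleic acid sensors 1 rose, STING1 (0.47), and 1 fell, CGAS (-0.19), the latter lost in 5 of the 6 fits without a library.

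Antigen presentation genes rose in part. Of 15 tested MHC class I genes 8 rose and none fell (median 0.21), and all 5 tested heavy-chain genes were among them, of which HLA-E was lost in 4 of the 6 fits without a library. HLA-C read 10155, 9630 and 10391 with DMSO and 16439, 17841 and 16683 with decitabine (log2 fold change 0.76, SE 0.06, adjusted p = 0.00019). NLRC5, the transactivator of the class I genes, read 324, 371 and 329.8 with DMSO and 584, 503 and 609 with decitabine (log2 fold change 0.72, SE 0.09, adjusted p = 0.00142). Both genes were higher in each decitabine library. The heavy-chain genes are near-identical, so the counts of each are uncertain. Of 10 tested class II genes 4 rose and none fell, with HLA-DRA at 77.2, 96.2 and 77.7 with DMSO and 126, 124 and 139 with decitabine (log2 fold change 0.63, SE 0.13, adjusted p = 0.00732). Of 17 tested NF-kB targets 7 rose and none fell (median 0.31). TNF, the inflammatory cytokine, read 417, 373 and 411 with DMSO and 671, 693 and 658 with decitabine (log2 fold change 0.75, SE 0.07, adjusted p = 0.000427), and CCL5, a chemokine, rose by 0.63. CD86, a ligand that activates T cells and also a macrophage marker, read 246, 288 and 274 with DMSO and 513, 552 and 535 with decitabine (log2 fold change 0.99, SE 0.08, adjusted p = 0.00027). The other 2 rises among 14 checkpoint genes, TNFSF9 and VSIR, were lost without decitabine replicate 1, decitabine replicate 3 or DMSO replicate 3.

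The remaining lists gave few calls, beside rises in 16.0% and falls in 15.6% of all tested genes. Of 29 lysosome and autophagy genes 7 rose and 2 fell, and neither fall held in every fit without a library. PSAP, which feeds lysosomal lipid breakdown, read 2407, 2399 and 2534 with DMSO and 3571, 4035 and 3638 with decitabine (log2 fold change 0.61, SE 0.06, adjusted p = 0.000547), and the cathepsins CTSZ and CTSD rose by 0.42 and 0.39. Of 11 tested domesticated retroviral and silencing genes 3 rose and 2 fell, and 1 fell without decitabine replicate 1, decitabine replicate 3 or DMSO replicate 2. ARC, a neuronal gene of retroviral origin, read 4.48, 1.29 and 6.03 with DMSO and 43.3, 31.6 and 38.1 with decitabine (log2 fold change 3.11, SE 0.40, adjusted p = 0.00162), and TRIM28, which silences retroviruses, had a log2 fold change of -0.22, a call lost when any of those 3 libraries was left out. ARC, like ERV3-1 given above, passed the filter through the decitabine arm alone. Of 8 tested imprinted genes 2 rose and 1 fell, GRB10 with -0.39, and none of the rises held without decitabine replicate 1.

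The response of MOLM-13 was compared with those of SKM-1 and MOLM-14, which had the same dose and time and their own DMSO libraries. MOLM-14 is a sister line of MOLM-13. SKM-1 was deposited in the same block of samples as MOLM-13, and MOLM-14 in another. Differences between MOLM-13 and MOLM-14 therefore cannot be told apart from differences between the blocks. Of 18205 genes tested, the response was more positive in MOLM-13 than in SKM-1 for 1712 (9.4%) and more negative for 2468 (13.6%). In either direction the responses differed for 23.0%. Against MOLM-14 the counts were 128 (0.698%) and 130 (0.708%) of 18349, in either direction 1.41%. The MOLM-14 libraries are shallower, and replicate 2 has 1971000 estimated reads with decitabine and 2018000 with DMSO. Without those 2 libraries the counts were 472 and 518. Leaving out 1 library at a time gave 55 to 196 and 23 to 211, the lowest without MOLM-13 DMSO replicate 2 and the highest without MOLM-14 decitabine replicate 2. For shared calls, those of SKM-1 and MOLM-14 came from fits that pooled the spread with MOLM-13. Those of MOLM-13 came from its own libraries alone, so the calls differ in power. With the spread shared with SKM-1, MOLM-13 had 3079 rises and 2635 falls. Of the 2491 rises in MOLM-13, 1008 were also called rises in SKM-1, which is 40.5% of the MOLM-13 calls and 24.7% of the SKM-1 calls, and 116 were called falls there. Over all genes tested in SKM-1, 22.45% were called rises and 16.3% falls. Of the 2427 falls, 1248 were called falls in SKM-1, 51.4% and 42.05% of the respective calls, and 213 were called rises. With MOLM-14, 462 rises (18.55% of MOLM-13 calls, 40.1% of MOLM-14 calls) and 547 falls (22.5% and 54.7%) were shared. Calls in the opposite direction numbered 32 and 39, and over all genes tested in MOLM-14 6.28% were called rises and 5.45% falls.

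Of the lists, the integrated stress response had the most genes whose response differed between the sister lines. Its median was -0.31 in MOLM-13, -0.74 in SKM-1 and -1.38 in MOLM-14. Responses of 29 of 36 genes differed from MOLM-14, all 29 less negative or more positive in MOLM-13. The count was 31 without the shallow libraries and 19 to 30 when 1 library was left out, with 19 reached without MOLM-13 decitabine replicate 1 or 3 or DMSO replicate 1 or 2. ATF5 rose by 1.73 in MOLM-13 and by 1.26 in SKM-1 and changed by -1.37 in MOLM-14. ASNS, asparagine synthetase, changed by -0.31, -0.80 and -2.61 in the same order. SLC7A5 changed by -0.68, -1.43 and -2.20.

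The granulocyte markers separated MOLM-13 from SKM-1. Their median was 0.44 in MOLM-13, -0.58 in SKM-1 and 1.00 in MOLM-14, and 10 of 12 responses differed from SKM-1, all higher in MOLM-13. MPO changed by 2.50 in MOLM-13, -0.66 in SKM-1 and 2.12 in MOLM-14. PRTN3 changed by 0.46, -1.92 and 1.74, and CEBPE by 3.44, 0.94 and 2.14. The monocyte markers had closer medians, 0.78 in MOLM-13, 0.74 in SKM-1 and 1.00 in MOLM-14, with single genes apart in both directions: 6 responses were higher and 11 lower in MOLM-13 than in SKM-1. Germline genes responded less in MOLM-13 than in SKM-1. PNMA5 changed by 1.54 in MOLM-13 and by 8.66 in SKM-1. Of 10 tested germline genes 6 had a lower response in MOLM-13 than in SKM-1 and none a higher. Of 37 interferon-stimulated genes 12 had a lower response in MOLM-13 than in SKM-1 and none a higher.

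**Figure D5:**
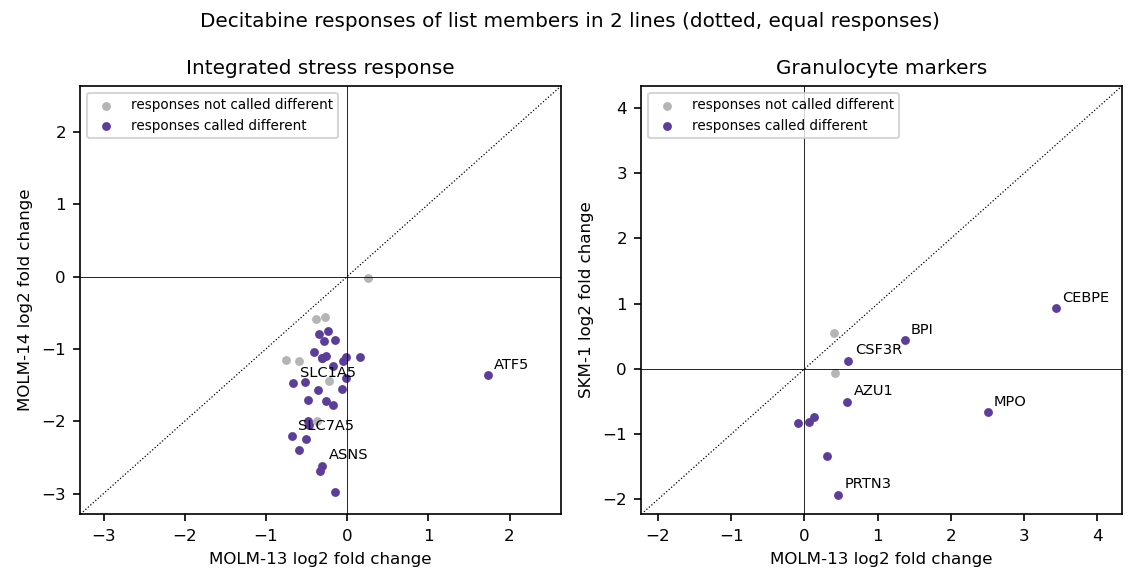
Log2 fold change with decitabine in MOLM-13 (horizontal) against MOLM-14 for 36 integrated stress response genes (left) and against SKM-1 for 12 granulocyte markers (right), with purple points where the responses differ at an adjusted p below 0.05 and the dotted line marking equal responses. Of the stress genes 29 are purple and lie below the line, and of the granulocyte markers 10 are purple and lie below the line.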

How the data were processed

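Total RNA of 6 MOLM-13 libraries was sequenced after ribosomal RNA removal, as single-end reads of a stranded kit, per the labels' protocols. The authors deposited a table of signal values, estimated counts per gene divided by normalization factors, per the name of the deposited table. The submitters' processing notes name Salmon 1.2.1, STAR, featureCounts, DESeq2 and limma and the build hg38, without their roles. The table has 60240 genes, of which 58064 matched GENCODE 29, and 12 value columns were not used. Only 63.2% to 65.3% of low MOLM-13 values (up to 20 reads, tolerance 0.02) came out as whole reads, so no count model was fitted. Depth was estimated from the smallest step between low values.

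Values were tested as log2(value + 1) with limma 3.58.1 (R 4.3.3, statmod 1.5.0; trended, robust moderation; Benjamini-Hochberg adjustment over all tested genes), for genes that reached 10 in 3 or more of the 6 libraries. Fold changes are on that scale, which understates the change of low genes. The spread was estimated from these 6 libraries. Responses of 2 lines were compared by an interaction term in 1 fit per pair. Shares were compared by exact permutation tests. The script was tested on simulated data.

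Named genes were the 12 protein-coding rises and the 12 falls that were largest among genes with a mean of at least 50 in the higher arm, called in every fit without a library and with arms apart, then 4 and 4 other genes by the same rule, up to 4 called genes of each list with the smallest p, genes fixed for their role, and genes that went from below 1 to at least 10. Other genes are named for their role in a list and were chosen after their values were seen. The members and gene lists were chosen with earlier results of these data known. Alternatives were another pseudocount, filter, scaling, moderation, spread, library weights, a replicate block and each library left out. OCI-AML2 and THP-1 samples were not analysed here, and KG-1 and OCI-AML3 entered the spread of all 30 libraries alone. Some genes and 1 gene list are not reported here.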

Additional observations from a re-analysis of the deposited data

Results flagged for a closer look

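The following genes are listed because their decitabine response in MOLM-13 differed from that in another line by the interaction term in limma, at a Benjamini-Hochberg adjusted p below 0.05 over all tested genes. Each value is the log2 response of MOLM-13 minus that of the other line (n = 3 libraries per arm and line), and no explanation was tested. Groups of 3 libraries were too small to look for single outlying libraries.

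Among the genes with the largest changes, the response was higher in MOLM-13 than in SKM-1 for CEBPE (2.50), MPO (3.16), ARAP3 (2.35), TREM1 (2.05), RGS2 (1.95), ERV3-1 (1.69), ZNF117 (1.24) and AL713998.1 (1.22). It was lower for ZNF595 (-4.16), JCAD (-3.31), EPHB3 (-2.93), IGLL1 (-2.45), AC007318.1 (-2.36), PDGFA (-2.16), TKTL1 (-2.10), KDM7A (-1.79), NPIPA9 (-1.42), LINC02212 (-1.41), Z99496.2 (-1.18), NREP (-0.94) and INSIG1 (-0.64).

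Among myeloid and other lineage markers, PRTN3 (2.39), MNDA (1.35), LYZ (1.12), AZU1 (1.09), BPI (0.93) and CSF3R (0.47) responded more in MOLM-13 than in SKM-1. KRT8 (-5.30), EPX (-3.58), PRG2 (-2.67) and CD68 (-0.61) responded less. Among immune, germline and imprinted genes, PNMA5 (-7.12), H19 (-5.94), TNF (-3.47) and HLA-DRA (-1.54) had lower responses in MOLM-13, where H19 was near 1 in every library. Higher values were found for MT-ND6 (1.26), MT-CYB (0.81), SLC7A5 (0.75), SAMHD1 (0.52), ASNS (0.49), ATF5 (0.47) and DNMT1 (0.45).

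Against MOLM-14 the response was higher in MOLM-13 for SSXP10 (4.41), ATF5 (3.10), ASNS (2.31), ZNF117 (2.29), ERV3-1 (2.03), AL713998.1 (1.76), SLC7A5 (1.52), KDM7A (1.17) and SLC1A5 (0.81). It was lower for H19 (-5.96), NREP (-1.16), JCAD (-1.06), INSIG1 (-0.91) and PDGFA (-0.73).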

How the results depend on the processing

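Pooling the spread of all 30 libraries cut the MOLM-13 calls from 2491 rises and 2427 falls to 322 and 371, and 96 of 164 named calls were lost; the cause was not tested. Leaving out 1 library gave 1618 to 2251 rises and 1603 to 2203 falls. Both lowest counts came without decitabine replicate 1, and without decitabine replicate 3 there were 1646 rises; these fits have fewer samples. The other settings kept both counts within 1.5 times: 1727 and 1981 with quantile normalization, 1846 and 2505 with a filter of 50, 2317 and 2013 without a filter. The labels do not say whether the replicate numbers pair the samples. Deviations of replicates with the same number were hardly correlated (-0.069, 0.043 and 0.021), which cannot settle it. A replicate block gave 1953 and 1775. For the difference from MOLM-14, 128 genes were higher and 130 lower. The replicate block gave 66 lower, leaving out the shallow libraries 472 and 518, and leaving out 1 library 55 to 196 higher and 23 to 211 lower; the cause was not tested. The counts against SKM-1 and the mitochondrial shares kept their side. List medians near 0 changed sign under quantile normalization: nucleic acid sensors to -0.04, DNA methylation machinery to 0.02, decitabine metabolism to 0.01, erythroid markers to -0.15 and fibroblast markers to -0.17. Depth of the MOLM-14 libraries and their separate block of samples limit the comparison with MOLM-14.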

Other observations

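MALAT1, a nuclear long non-coding RNA that belonged to no list, was among the most abundant transcripts that rose. It read 43067, 38426 and 48447 with DMSO and 97097, 89756 and 101990 with decitabine (log2 fold change 1.16, SE 0.09, adjusted p = 0.00022), and the arms did not overlap. It was singled out after its values were seen.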
